A study of Mus musculus with 2 samples.

Results

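The 10 genes described here encode enzymes of serine synthesis (Phgdh, Psat1, Psph), asparagine synthesis (Asns) and folate one-carbon metabolism (Shmt1, Shmt2, Mthfd1, Mthfd1l, Mthfd2, Aldh1l2). They were taken by gene symbol out of 18194 genes that have a probe set of their own on the array. All 10 reached the signal floor described below on both arrays. The list was chosen by pathway with the signal ratios of these same arrays already known, so the ratios are given as a description and no test was made of them. The study compared mRNA of NIH3T3 cells, an immortalised line of mouse embryonic fibroblasts, grown in DMEM with fetal bovine serum. One culture was infected with a retrovirus expressing a short hairpin RNA labelled CCR4b RNAi, and the other with a retrovirus labelled Control RNAi. CCR4b, encoded by Cnot6l, is a deadenylase, an enzyme that removes poly(A) tails from mRNAs, and works in the CCR4-NOT complex. There were 2 arrays, 1 for each culture, so the values carry no replicate error. The terms higher and lower refer to the CCR4b RNAi array relative to the control array. The labels do not state the hairpin sequence, the time after infection or any selection of infected cells.

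Serine is made from a glycolytic intermediate in a short chain of reactions. PHGDH oxidises 3-phosphoglycerate, PSAT1 adds an amino group from glutamate, and PSPH removes the phosphate. Serine hydroxymethyltransferases (SHMT1 in the cytosol, SHMT2 in mitochondria) then split serine into glycine and a one-carbon unit carried on tetrahydrofolate. MTHFD enzymes and ALDH1L2 interconvert and release the carried units, which feed purine, thymidylate and methionine synthesis. Many of these genes, with Asns, are known targets of ATF4, a transcription factor made during amino acid shortage and endoplasmic reticulum stress. ATF4 binds composite C/EBP-ATF response elements, abbreviated CARE, and the element of the Asns promoter is among the best studied.

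RefSeq promoter windows of the GRCm38.p6 build, running from 250 bases before to 50 bases after an annotated start, were on hand for 9 of the 10 genes, in 10 windows. The CARE core was searched as TGATGNAA on both strands, where N is any base, together with the E-box CACGTG, the site bound by MYC. The core was found in 1 of the 10 windows, that of Asns, and in 3.97% of all 32851 windows of this length. It read TGATGAAA and lay 23 to 16 bases upstream of the annotated Asns start. The E-box was found in 0 of the 10 windows and in 7.15% of all windows. A match describes letters and is not evidence of binding, and these windows do not cover introns or more distant sequence. The 250 upstream bases are shown for Asns, which holds the match in capitals, and for Mthfd2, which had the lowest ratio of the 10 genes and holds none. Both lie on the minus strand, at chr6:7693210-7693459 for Asns and chr6:83317605-83317854 for Mthfd2, and are written 5′ to 3′.
Asns: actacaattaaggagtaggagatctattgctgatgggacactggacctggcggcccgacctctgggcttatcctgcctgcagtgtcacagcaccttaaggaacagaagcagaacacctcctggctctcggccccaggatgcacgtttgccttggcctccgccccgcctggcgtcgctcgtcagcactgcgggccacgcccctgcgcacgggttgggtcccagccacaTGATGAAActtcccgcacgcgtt
Mthfd2: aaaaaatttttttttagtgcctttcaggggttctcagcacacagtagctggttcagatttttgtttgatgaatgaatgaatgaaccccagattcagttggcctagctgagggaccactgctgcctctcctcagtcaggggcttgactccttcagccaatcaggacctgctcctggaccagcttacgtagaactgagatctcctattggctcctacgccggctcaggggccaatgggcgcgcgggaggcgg

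Signals are in the arbitrary units of the deposited table. They were raised to a floor of 8.07 units, the median of all values of both arrays, before log2 ratios were taken. A gene counted as measured if its brightest probe set reached the floor on at least 1 array, and that probe set stood for the gene. This gave 11915 measured genes with a median log2 ratio of -0.070. A 2-fold threshold was passed downward by 4.48% of them and upward by 3.74%. At 1.5-fold these shares were 14.6% (lower) and 11.3% (higher), and dividing each array by its median turned this split into 19.0% and 9.09%. The ratios of the brightest pair of probe sets of a gene were also compared. Their differences gave a robust SD of 0.30 log2 units for the ratio of a single probe set. Cnot6l, the targeted gene, went from 102 to 43.0 units on its brightest probe set, and its other 3 probe sets were lower too. Of 13 fibroblast markers all were above the floor on both arrays, whereas endothelial and muscle markers (4 and 3 genes) were below it on both. Of the epithelial, immune and adipocyte markers with a probe set, 1 of 5, 2 of 5 and 1 of 3 reached it, with summed signals between 37.8 and 54.8 units on the control array and between 26.7 and 61.7 on the other, beside 22270 and 27122 for the fibroblast markers. The 3′/5′ signal ratio, a check of RNA integrity, was 1.35 and 1.46 for Actb and 0.824 and 0.819 for Gapdh on the control and CCR4b RNAi arrays. These are bulk RNA values, in which fewer cells expressing a gene and less RNA per cell cannot be told apart.

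All 10 genes had a negative log2 ratio, as did 6671 of all 11915 measured genes. The median of the 10 was -1.11 (2.16-fold lower), beside -0.070 over all measured genes. Of the 10, 6 were at least 2-fold lower (4.48% of all measured genes) and 8 at least 1.5-fold lower (14.6% of all measured genes). None was higher. These counts follow from how the list was made and are not read further. Within the list the ratios ran from -2.04 for Mthfd2 to -0.44 for Shmt1. The 10 genes were read by 24 probe sets annotated to them alone, of which 22 were lower and 2 higher. The exceptions were 1 probe set each of Shmt1 and Shmt2.

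**Figure D1:**
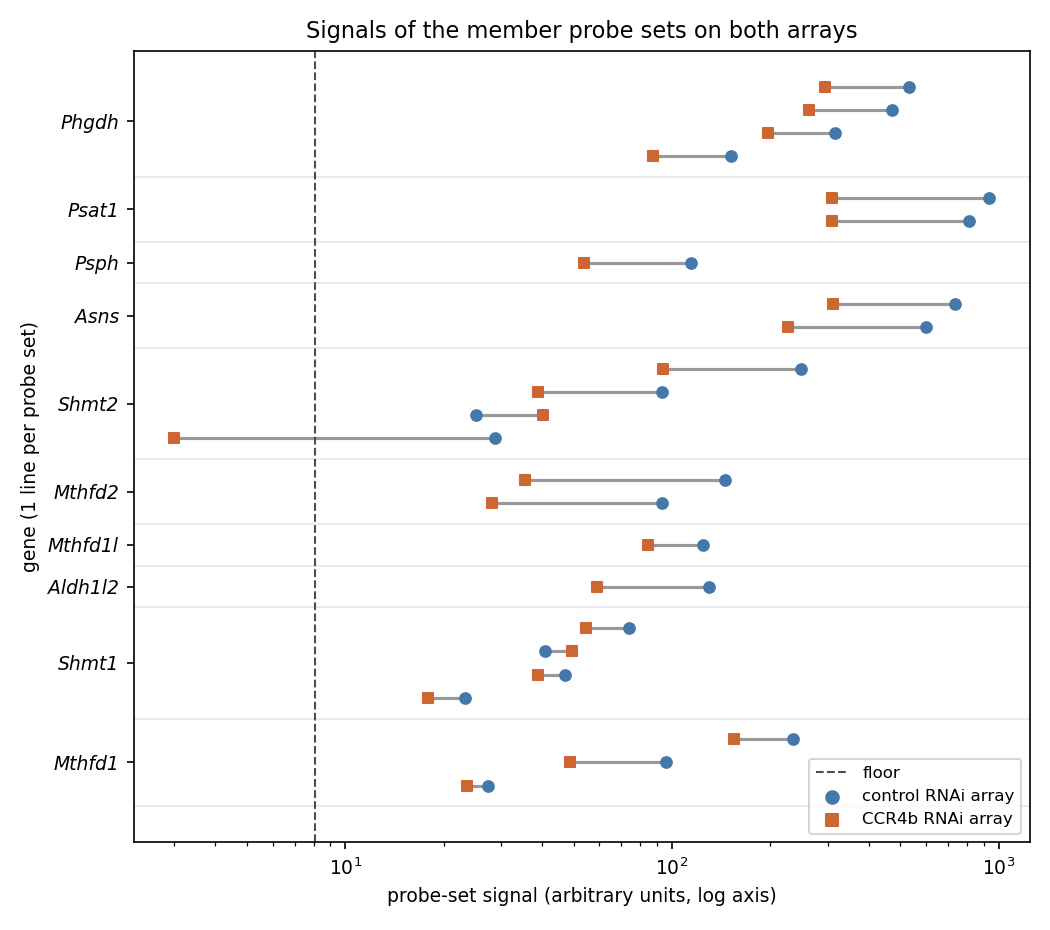
Signal of each of the 24 probe sets on the control RNAi array (circles) and the CCR4b RNAi array (squares), in arbitrary units on a log axis, with 1 line per probe set and the floor of 8.07 units dashed. The square lies left of the circle on 22 lines; the exceptions are 1 line of Shmt1 and 1 of Shmt2.

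All 3 genes of serine synthesis were lower. Psat1, the aminotransferase of the middle step, had a signal of 935 units in control cells and 309 units in depleted cells, 3.03-fold lower (log2 ratio -1.60). Its second probe set read 812 and 310 units, 2.62-fold lower. Psph, the phosphatase of the last step, has a single probe set, which read 115 and 53.9 units (2.12-fold lower, log2 ratio -1.09). Phgdh, the dehydrogenase of the first step, had the smallest difference of this group. Its brightest probe set read 533 and 294 units (1.81-fold lower, log2 ratio -0.86). The other 3 lay between 1.60-fold and 1.79-fold lower, so the 4 probe sets lay close together. All 4 carry the suffix _x_at, which, like the _s_at of the second Psat1 set, marks probes that can also hybridise to other transcripts. A further pair of probe sets is annotated to Phgdh together with the predicted genes Gm8096 or Gm6756. They read 203 and 108 units, and 170 and 106 units, and cannot be assigned to Phgdh alone.

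Asns makes asparagine from aspartate and glutamine. Its brightest probe set went from 736 to 312 units (2.36-fold lower, log2 ratio -1.24). The second, an _x_at set, read 600 and 227 units, 2.64-fold lower. The probe sets of this gene, whose promoter held the CARE core shown above, had log2 ratios of -1.24 and -1.40, beside the robust SD of 0.30 for a single probe set. Among genes of like signal, the Asns ratio stood at percentile 1.01.

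The mitochondrial folate enzymes included the lowest ratio of the list. Mthfd2, the mitochondrial dehydrogenase and cyclohydrolase that is abundant in embryonic and dividing cells, went from 146 to 35.5 units (4.10-fold lower, log2 ratio -2.04). Its second probe set read 93.4 and 28.1 units, 3.33-fold lower. Shmt2, the mitochondrial hydroxymethyltransferase, read 249 and 93.8 units on its brightest probe set (2.65-fold lower, log2 ratio -1.41). Its second, which does not carry a cross-hybridisation suffix, read 93.5 and 38.9 units, 2.40-fold lower. The dimmer pair of Shmt2 probe sets, both of the _x_at type, went opposite ways. One went from 28.8 units to a value below the floor, which makes it at least 3.57-fold lower, and the other read 25.2 and 40.4 units, 1.60-fold higher.

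Aldh1l2 encodes the mitochondrial enzyme that oxidises formyl-tetrahydrofolate. Its single probe set went from 130 to 58.8 units (2.20-fold lower, log2 ratio -1.14). Mthfd1l, the mitochondrial ligase that yields formate for export to the cytosol, showed the smallest difference of the mitochondrial enzymes. Its single probe set read 124 and 84.7 units (1.47-fold lower, log2 ratio -0.55), short of the 1.5-fold threshold.

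The cytosolic folate enzymes lay nearer to the bulk of the array. Mthfd1, the trifunctional cytosolic enzyme, read 235 and 154 units on its brightest probe set (1.52-fold lower, log2 ratio -0.61). Its other probe sets read 96.1 and 48.7 units (1.97-fold lower) and, on an _x_at set, 27.4 and 23.5 units (1.17-fold lower). Shmt1, the cytosolic hydroxymethyltransferase, read 73.8 and 54.4 units on its brightest probe set (1.36-fold lower, log2 ratio -0.44). Of its dimmer probe sets, the pair without a cross-hybridisation suffix were 1.21-fold and 1.30-fold lower, and the remaining one, an _s_at set, gave 40.9 and 49.4 units, 1.21-fold higher. The Shmt1 ratio was thus within the spread of genes of like signal, whose robust SD was 0.50.

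Set side by side, the log2 ratio of Shmt2 was 0.97 units below that of its cytosolic counterpart (-1.41 against -0.44). That of Mthfd2 was 1.43 units below that of Mthfd1 (-2.04 against -0.61). Mthfd1l and Mthfd1 were alike, at -0.55 and -0.61. The lower mitochondrial values are therefore those of Shmt2, Mthfd2 and Aldh1l2 and do not extend to Mthfd1l. With 1 array per group these differences between genes have no test.

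Genes were also placed among genes of like signal, in 10 classes of equal size, because bright genes had lower ratios in general (class medians between -0.17 and -0.14 for the classes of the 10 genes). Mthfd2 stood at percentile 0.084 of its class, Psat1 at 0.336 and Shmt2 at 1.17. Aldh1l2 stood at percentile 3.11, Psph at 3.61 and Phgdh at 4.11. Mthfd1 (14.2), Mthfd1l (17.4) and Shmt1 (26.3) were not extreme in their classes. For these 3 genes the distance to the class median was between -1.08 and -0.61 robust SDs. For Mthfd2 and Psat1 it was -4.4 and -4.0. This spread holds differences between the cultures as well as measurement error.

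**Figure D2:**
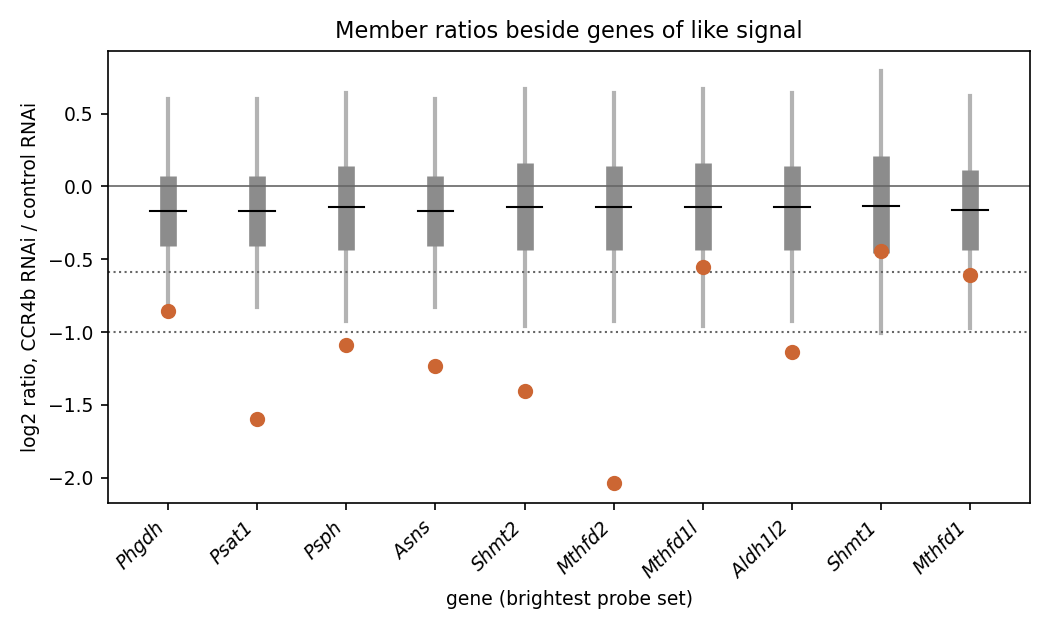
Log2 ratio (CCR4b RNAi over control RNAi) of the brightest probe set of each of the 10 genes (points) beside all measured genes of the same signal class: black line, median; thick bar, middle 50%; thin bar, 5th to 95th percentile. Dotted lines mark 1.5-fold and 2-fold lower; Mthfd1l, Shmt1 and Mthfd1 lie inside the thin bar of their class, and Mthfd2 and Psat1 lie farthest below theirs.

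The wider pathway was followed in 62 further genes of folate, glycine, methionine, purine, serine and aspartate metabolism, 54 of them with an unshared probe set and 44 measured. Of the 44, 16 were at least 1.5-fold lower (14.6% of all measured genes) and 3 at least 1.5-fold higher (11.3%). Their median log2 ratio was -0.40, beside -0.070 over all measured genes and -1.11 for the 10 enzymes. The lists behind these counts are small and were written with earlier results of these arrays known.

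Purine synthesis uses formyl groups from folate, and 5 of its 6 genes were at least 1.5-fold lower (14.6% of all measured genes), with a median log2 ratio of -0.75. The count was 4 with quantile normalization and with loess correction, where Atic (-0.44 and -0.45) fell short. It was also 4 with the higher floor, with the median over probe sets and without _x_at and _s_at sets. There Ppat (-0.028, -0.45 and -0.20) fell short. GART and ATIC are the formyl-transferring enzymes. Gart went from 114 to 64.8 units (1.76-fold lower, and 2.74-fold and 1.34-fold lower on its next probe sets). The dimmest Gart probe set, an _x_at set, was below the floor in control cells and gave 11.2 units in depleted cells. Atic read 406 and 262 units (1.55-fold, and 2.11-fold on its second). Adsl, adenylosuccinate lyase, was 2.06-fold lower, from 150 to 72.8 units. Pfas and Ppat, which act early in the pathway, were 1.77-fold and 1.62-fold lower, Ppat on an _s_at probe set and 1.15-fold on its other measured one. Paics was the exception, at 1109 and 948 units (log2 ratio -0.23).

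In folate uptake and retention, 2 of 5 measured genes were at least 1.5-fold lower (14.6% of all measured genes), and each lost the call under 1 alternative. Slc19a1, the reduced folate carrier, went from 84.9 to 48.0 units (1.77-fold lower) on its brightest probe set, but read 33.7 and 32.5 units on the next, and its median over probe sets was -0.051. Its dimmest probe set reached the floor in depleted cells alone, at 16.7 units. Fpgs, which adds the glutamate tail that keeps folates in the cell, read 51.6 and 30.6 units, 1.69-fold lower (log2 ratio -0.53 with the higher floor). Slc25a32, the mitochondrial folate carrier, had log2 ratios of -0.44 on its brightest probe set and 0.31 on the next. Ggh (-0.058, turning to 0.019 with quantile normalization and 0.021 with loess correction) and Folr1 (0.10, from signals close to the floor) were near 0.

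Of the other folate enzymes 3 were measured, and 0 of them passed 1.5-fold in either direction (14.6% of all measured genes were lower and 11.3% higher). With quantile normalization and with loess correction 1 was higher, Mthfd2l at 0.67 (12.0% of all measured genes). With the lower floor 2 of 5 measured were lower (21.6%). With no floor 2 of 6 were lower (21.1%) and 1 higher (19.5%). Mthfd2l, the mitochondrial paralogue of Mthfd2, went from 67.3 to 99.2 units (log2 ratio 0.56). Of its 3 dimmer probe sets, those at log2 ratios of 0.60 and 0.62 were of the same sign, and the _x_at set had -0.17. The sign was thus opposite to that of Mthfd2 on 3 of 4 probe sets. Mtfmt, which formylates mitochondrial initiator tRNA, had a log2 ratio of 0.44, and its other probe set went from 9.24 units to 7.23, below the floor. Aldh1l1, the cytosolic paralogue of Aldh1l2, read 9.79 units in control cells and less than the floor in depleted cells. Its log2 ratio therefore depended on the floor, at -0.28 as a bound here, -1.43 with the lower floor and -1.22 with no floor. The other Aldh1l1 probe set went the opposite way and reached the floor in depleted cells alone, at 8.21 units. The median over probe sets was -0.13. The probe sets that Tyms, Mthfs and Ftcd have to themselves were below the floor on both arrays. In the glycine cleavage system Gcsh and Dld had log2 ratios of -0.36 and -0.56, and Gldc, the decarboxylase that starts the reaction, was below the floor on both arrays.

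The methionine cycle, which takes up a methyl group from folate, and the transsulfuration branch held 2 of 7 measured genes at least 1.5-fold lower (14.6% of all measured genes). Mtr, at -0.57, passed 1.5-fold with the 3 other scalings (-0.66 to -0.64), which made the count 3 (12.9% to 19.0% of all measured genes). With the median over probe sets Mtr (-0.72) and Ahcyl1 (-0.68) made it 4 (12.7%). With the higher floor it was 1 of 4 measured (14.1%). Mtrr went the other way, at 0.51. Ahcy, which hydrolyses S-adenosylhomocysteine, read 421 and 197 units (2.14-fold lower). Cth, cystathionine gamma-lyase, read 24.6 and 9.31 units (2.64-fold lower), the latter close to the floor. Ahcyl1 had a log2 ratio of -0.32 and of -0.68 and -0.88 on its dimmer probe sets. Mat2b (-0.015, turning to 0.18 with quantile normalization) and Ahcyl2 (0.068, turning to -0.025 when arrays were divided by their medians) were near 0.

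Genes that carry or use serine went both ways, with 8 of 12 below 0, beside 6671 of all 11915 measured genes. Log2 ratios of the 12 ran from -0.62 to 1.20. Their median of -0.032 turned to 0.14 with quantile normalization. At 1.5-fold 1 was lower and 1 higher (14.6% and 11.3% of all measured genes). Slc1a5, a transporter of glutamine and other neutral amino acids including serine, was 2.30-fold higher, from 68.3 to 157 units, though its dim second probe set read 10.2 and 11.4 units. Slc38a1, a neutral amino acid transporter, was 1.54-fold lower on an _s_at probe set. It fell short of 1.5-fold with quantile normalization (-0.51) and loess correction (-0.50). The same held with the median over probe sets (-0.56) and without _x_at and _s_at sets (-0.50). Sars, seryl-tRNA synthetase (-0.52), Sfxn1, a mitochondrial serine transporter (-0.49), and Sptlc1, a subunit of serine palmitoyltransferase (-0.48), were below 0. Srr, serine racemase, had a log2 ratio of 0.17 on its brightest probe set, was higher on all 6 of its probe sets and had a median over them of 0.66. The dimmest pair of Srr probe sets were below the floor in control cells, so their ratios (0.96 and 0.67) are bounds. Both enter that median. Slc38a2 (log2 ratio 0.080), Serinc1 (-0.052) and Serinc3 (-0.0052) were close to 0, and each took the other sign under at least 1 other scaling.

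Genes that handle aspartate, glutamate and asparagine were lower in 6 of 9 cases and higher in 2 at 1.5-fold (14.6% and 11.3% of all measured genes). Asrgl1 left the lower group with quantile normalization and with loess correction (-0.53 in both) and with the median over probe sets (-0.47). Gpt2 left it with the higher floor (-0.16), and Aldh18a1 without _x_at and _s_at sets (-0.45). In each of these settings 5 remained. The higher group fell to 1 with the median over probe sets, where Glul had 0.40, and with the higher floor, where Aspg was not measured. Aldh18a1, the first enzyme of proline synthesis from glutamate, was 1.81-fold lower on an _x_at probe set and 1.37-fold lower on the set without a suffix, while its dimmest, another _x_at set, went from 12.4 to 15.3 units. Gpt2, a mitochondrial alanine aminotransferase, was 1.79-fold lower and between 1.51-fold and 2.06-fold lower on its other probe sets. Nars, which charges asparaginyl-tRNA, read 422 and 242 units (1.75-fold lower), and 447 and 228 units on its other probe set. Glud1, Got1 and Asrgl1 were 1.71-fold, 1.69-fold and 1.56-fold lower, and Got2 had a log2 ratio of -0.35. Glul, glutamine synthetase, read 26.4 and 75.9 units (2.87-fold higher), but its second probe set read 29.0 and 17.5 units and was 1.65-fold lower. Aspg, which encodes an asparaginase, reached the floor in depleted cells alone, at 34.9 units, which makes it at least 4.33-fold higher on its single probe set.

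**Figure D3:**
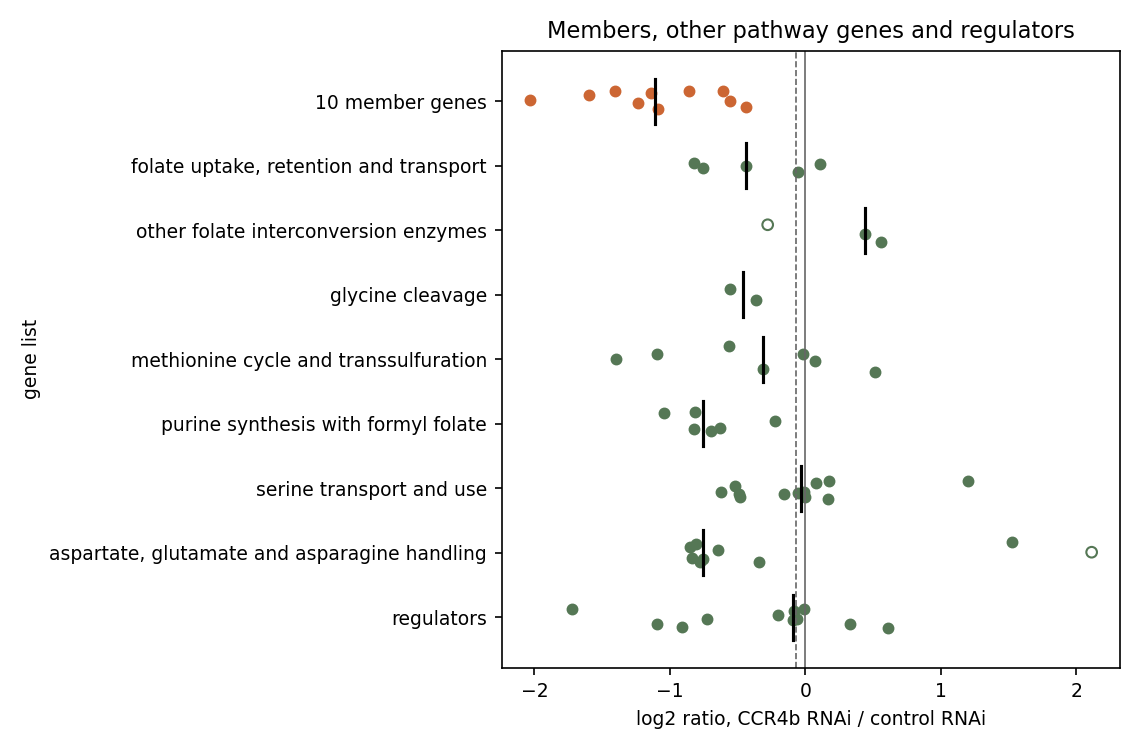
Log2 ratios (CCR4b RNAi over control RNAi) of the 10 enzymes, of 44 other measured pathway genes by list, and of 11 regulators; each point is 1 gene, open points are bounds against the floor, black bars are list medians, and the dashed line is the median of all measured genes. The 10 enzymes all lie left of 0, with purine synthesis (median -0.75) and aspartate handling (median -0.76) next.

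Among 11 regulators, all measured, 4 passed the 1.5-fold threshold downward (14.6% of all measured genes did) and 1 upward (11.3%), with a median log2 ratio of -0.092. Atf4 went from 1041 to 552 units (1.88-fold lower, log2 ratio -0.91), and its second bright probe set was 1.81-fold lower. ATF4 is controlled largely through translation, which an array does not measure. Trib3, a pseudokinase induced by ATF4, was 3.31-fold and 3.60-fold lower on its probe sets, from 50.4 to 15.2 units on the brighter. Ddit3, which encodes CHOP, was 1.65-fold lower from 301 to 182 units, but its dim probe set gave a log2 ratio of 0.29. With quantile normalization (-0.56) and loess correction (-0.55) Ddit3 fell short of 1.5-fold, which left 3 regulators in the lower group. Myc was 2.14-fold lower, from 83.7 to 39.1 units.

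The eIF2 alpha kinase gene Eif2ak4, which encodes the amino acid sensor GCN2, went the other way, from 62.8 to 95.7 units (1.52-fold higher). Its second probe set read 8.36 and 11.4 units, 1.37-fold higher. Eif2ak4 fell short of 1.5-fold when arrays were divided by their medians (0.51) and with the median over probe sets (0.53). Nfe2l2, which encodes NRF2, had a log2 ratio of 0.33 and Cebpb one of -0.20. The remaining 4 were near 0. Atf5 (-0.086), Cebpg (-0.092), Eif2ak3 (-0.063) and Sesn2 (-0.012) turned positive with quantile normalization and with loess correction. On its other probe set Sesn2 reached the floor in depleted cells alone, at 30.6 units.

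Cell division genes were lower on the same pair of arrays. All 11 measured genes of a list of 12, which are active in dividing cells, were at least 1.5-fold lower (14.6% of all measured genes), with a median log2 ratio of -1.30. Their summed signal was 5084 units in control cells and 2357 units in depleted cells. The part of cell division in the ratios of the serine and folate enzymes was not tested.

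Other processing choices moved the ratios of the 10 enzymes by less than the robust SD of a single probe set, 0.30. Under 8 alternatives, 79 recomputed ratios were all below 0, and Phgdh dropped out of the alternative without _x_at and _s_at probe sets. Psph left the 2-fold group and Mthfd1 the 1.5-fold group with quantile normalization and with loess correction, and Mthfd1l entered the 1.5-fold group when arrays were divided by their medians.

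**Figure D4:**
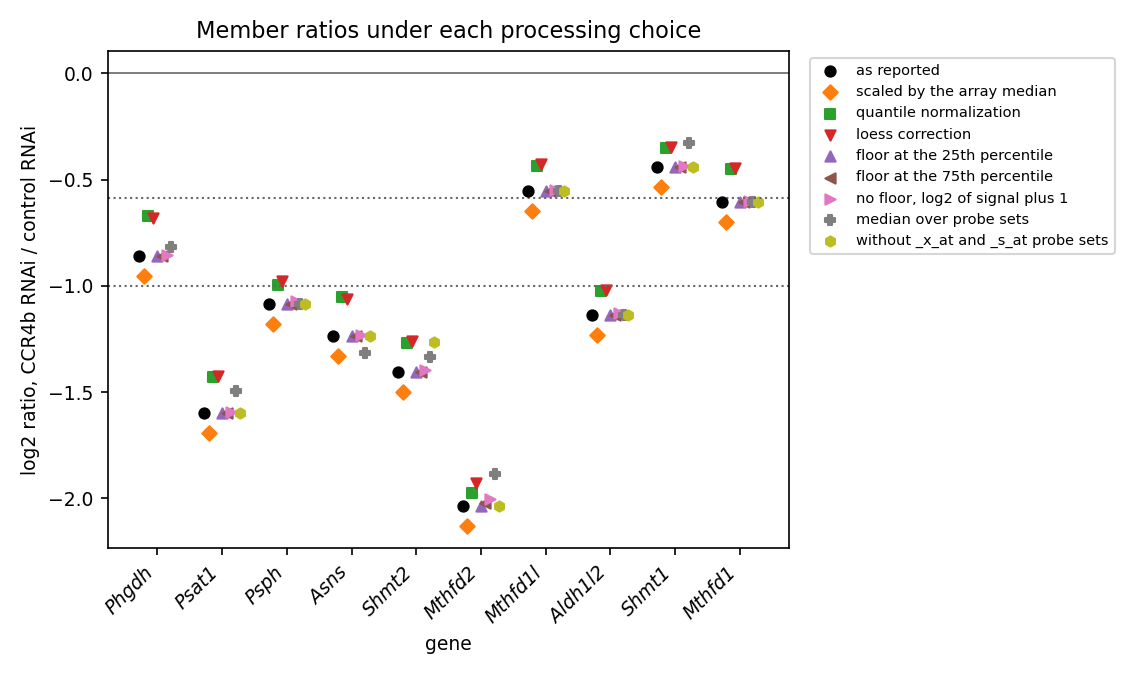
Log2 ratio (CCR4b RNAi over control RNAi) of each of the 10 enzymes as reported (black circles) and under 8 other processing choices (coloured symbols); dotted lines mark 1.5-fold and 2-fold lower. All symbols lie below 0; for each gene, division by the array median gave the lowest of these ratios, and quantile normalization and loess correction raised it.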

How the data were processed

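Biotin-labelled cRNA from total RNA of 2 NIH3T3 cultures was hybridised to Affymetrix GeneChip Mouse Genome arrays, 1 array per group. The knockdown label gave the groups. Per the series design text, the authors made the deposited intensities, 1 linear value per probe set, in GCOS with a global normalization. GCOS is the tool in the submitters' processing notes, listed without a version. Neither a scaling target nor detection calls were on hand. The number of arrays limits precision.

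Probe sets were named through the platform annotation (34958 with 1 gene symbol, 932 with several, 9211 unnamed), and 34754 of those with 1 symbol matched the GRCm38.p6 RefSeq gene table. Only those with 1 symbol stood for a gene. Where 1 array was below the floor, the ratio is a bound, written "at least". Folds are ratios of floored signals, which understate differences of dim genes. The spread is the scaled median absolute deviation, called robust SD. Calculations used Python 3.11.15, pandas 2.3.3, numpy 2.4.6 and statsmodels 0.14.6 and were tested on simulated data.

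The 10 genes and all lists were chosen with earlier results of these data known. Named genes were the 10 enzymes with every probe set, Cnot6l, all regulators, each list gene at least 1.5-fold different and up to 3 of the brightest others per list, and Actb and Gapdh. Tyms, Mthfs, Ftcd and Gldc, below the floor, and Sars, Sfxn1, Sptlc1, Srr, Mtr and Mtrr were named in addition, after their values were seen. Promoters are RefSeq sequences of GRCm38.p6. Alternatives were other scalings, floors and choices of probe set.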

Additional observations from a re-analysis of the deposited data

How the results depend on the processing

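With 1 array per group there was no test and no array could be left out. No paired analysis was possible because each group has a single sample. Under 8 alternatives (3 other scalings, including a loess correction with span 0.3; a lower floor at percentile 25 and a higher one at percentile 75; a pseudocount of 1 in place of the floor; and 2 other choices of probe set), the count of the 10 enzymes at least 2-fold lower ranged from 5 to 6, and at least 1.5-fold lower from 7 to 9. Their median log2 ratio ranged from -1.21 to -0.998. Among the other pathway genes, 12 to 20 were at least 1.5-fold lower and the median ranged from -0.50 to -0.30. The share of all measured genes moved as well, from 3.62% to 11.3% at 2-fold lower and from 12.7% to 21.6% at 1.5-fold lower. The count of these pathway genes at least 1.5-fold higher was 3 as reported. It was 4 with quantile normalization and with loess correction (12.0% of all measured genes), and 2 with the higher floor (6.48%). With the lower floor it was 6 and with no floor 7. Both settings let in dimmer genes (52 and 54 measured in place of 44). In them 19.8% and 19.5% of all measured genes were at least 1.5-fold higher, beside 11.3% as reported. Taking the median over probe sets moved Slc19a1 to -0.051, Slc25a32 to 0.31, Glul to 0.40, Slc1a5 to 0.68, Ahcyl1 to -0.68, Mtfmt to 0.12, Srr to 0.66, Ddit3 to -0.22 and Sesn2 to 0.96. With the higher floor Trib3 moved to -0.49, Gpt2 to -0.16, Ppat to -0.028, Fpgs to -0.53 and Glul to 1.08. With the lower floor and with no floor Aldh1l1 moved to -1.43 and -1.22, and Aspg to 4.03 and 4.85. Without _x_at and _s_at sets Ppat moved to -0.20 and Aldh18a1 to -0.45. The signal over background of dim genes limits these ratios, and the cultures themselves were not replicated.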
